A study of Mus musculus with 12 samples.

Results

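The 10 genes described here are Runx2, Sp7, Alpl, Bglap, Bglap2, Ibsp, Dmp1, Spp1, Mmp13 and Wif1, by which osteoblasts, osteocytes and bone matrix are known. They were taken by symbol from a list proposed with the values of these libraries in view, and all 10 were found among 27570 genes joined between the files' annotations. All 10 also passed the filter on low counts, which left 13942 genes for testing. Their levels and fold changes are therefore given as a description, with no p-value for a member or for their sum. The question behind the list was whether libraries labelled as monocytes from the meninges held transcripts of skull bone.

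RNA sequencing counts were used from 12 libraries of male C57BL/6J mice, 3 in each of 4 groups. Mice of the psilocybin, MDMA and vehicle groups had 18 days of chronic restraint, received psilocybin (a serotonergic psychedelic), MDMA (an amphetamine derivative) or vehicle, and were left for 24 hours before the meninges were taken. Unstressed mice served as controls. The sources used here give no dose, age or number of mice behind a library, so p-values measure only the spread between these libraries. Cells were enriched with a magnetic monocyte isolation kit.

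Bone is built by osteoblasts, which lay down type I collagen and a set of mineral-binding proteins and then mineralise this matrix. The transcription factor RUNX2 starts the lineage and SP7 acts downstream of it, alkaline phosphatase removes the inhibitor pyrophosphate, and osteocalcin marks the mature cell. Some osteoblasts become enclosed in the matrix as osteocytes, which make DMP1. The dura mater, the outer layer of the meninges, lies against the inner face of the skull, whose marrow makes blood cells.

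Library totals ran from 807725 counts in vehicle library 2 to 5136953 counts in MDMA library 3. Levels are in CPM, each count scaled by its library's total. Monocyte and leukocyte markers summed to between 252 and 1323 CPM, while markers of choroid plexus epithelium, a tissue of the brain ventricles, summed to between 12280 and 127313 CPM. Vehicle libraries 1 and 3 stood apart: 29.2% and 34.2% of the tested genes had no count in them, against 11.1% in vehicle library 2 and at most 6.94% in any library of the other groups. In vehicle library 2 a count of 0 allows a level of up to 3.71 CPM, and levels below this could not be told from 0 there.

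The 3 MDMA libraries and unstressed library 2 held more than 3 counts of every one of the 10 genes, and no other library did. Psilocybin libraries 1 to 3 held more than 3 counts of 5, 6 and 8 of the genes, vehicle libraries of 5, 3 and 4, and unstressed libraries 1 and 3 of 6 and 4. The 10 genes summed to 270.0, 279 and 492 CPM in the psilocybin libraries and to 783, 944 and 1810 CPM in the MDMA libraries, against 252, 290.0 and 352 CPM in the vehicle libraries. The unstressed libraries had 291, 770.0 and 243 CPM. In bulk RNA, fewer cells of a type and less RNA per cell cannot be told apart.

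**Figure D1:**
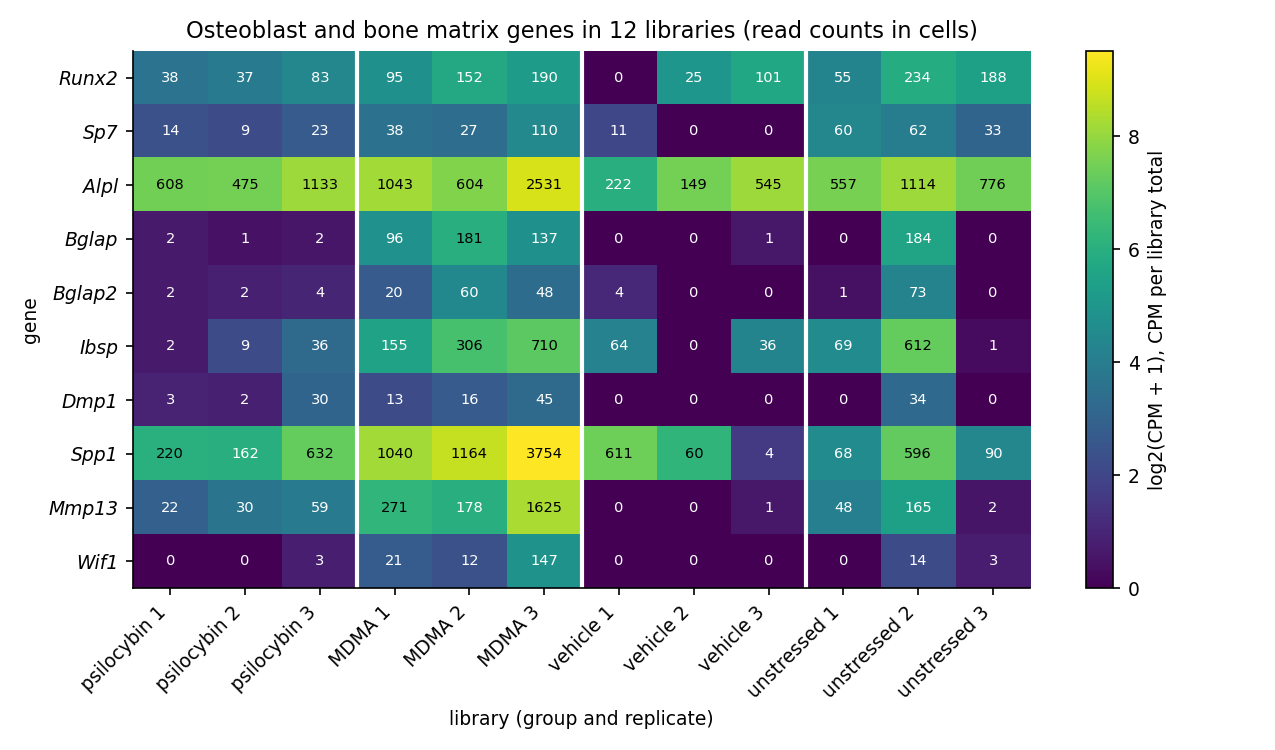
Heat map of the 10 genes (rows) in the 12 libraries (columns, psilocybin, MDMA, vehicle and unstressed from left to right). Colour is log2(CPM + 1), and each cell prints the read count. The osteocalcin genes Bglap and Bglap2 are brighter in the 3 MDMA libraries and in unstressed library 2 than in the other 8 libraries.

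Osteocalcin separated the libraries most plainly. Bglap (ENSMUSG00000074483.2, GRCm38 chr3:88383501-88384464, minus strand) encodes osteocalcin, a small calcium-binding protein secreted by mature osteoblasts. It had 2, 1 and 2 counts in the psilocybin libraries and 96, 181 and 137 counts in the MDMA libraries, against 0, 0 and 1 counts in the vehicle libraries. The unstressed libraries had 0, 184 and 0 counts. Unstressed library 2 held a Bglap level of the size seen with MDMA, at 45.9 CPM beside 26.9, 63.3 and 26.7 CPM in the MDMA libraries. The MDMA levels, unlike the psilocybin ones, lay above the limit of 3.71 CPM in vehicle library 2. In unstressed libraries 1 and 3 a count of 0 allows up to 1.02 and 0.666 CPM. Intervals and limits of this kind cover counting error only.

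Bglap2 (ENSMUSG00000074486.2, chr3:88377736-88378699, minus strand), the neighbouring osteocalcin copy, was high in the same libraries. It had 2, 2 and 4 counts with psilocybin and 20, 60 and 48 counts with MDMA, against 4, 0 and 0 counts with vehicle. Unstressed libraries had 1, 73 and 0 counts. The lowest MDMA level, 5.61 CPM, lay above the limit in vehicle library 2, and the highest psilocybin level, 0.981 CPM, below it. The copies lie 4801 bases apart, and the osteocalcin genes share much of their sequence. Of the 50-base windows of the Bglap transcripts, 56.6% also occur in transcripts of Bglap2 or of a further copy, Bglap3. Of those of Bglap2, 88.2% also occur in Bglap or Bglap3. How reads that match several copies were counted is not stated, so the split between the copies is uncertain. Summed over Bglap, Bglap2 and the copy Bglap3, which had at most 2 counts in any library, osteocalcin stood at 1.27 ± 0.175 CPM with psilocybin, 51.1 ± 28.8 CPM with MDMA, 0.709 ± 0.615 CPM with vehicle and 21.6 ± 37.1 CPM in unstressed mice (SD, n = 3 each).

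Fitted over all 12 libraries with edgeR, Bglap was higher by 7.32 ± 2.36 (log2 difference ± SE) with MDMA than with vehicle, and Bglap2 by 4.35 ± 1.80. The pooled libraries held 414 Bglap counts with MDMA and 1 with vehicle, which after scaling is 188 to 1, with 95% counting limits of 33.6 and 7460. For psilocybin against vehicle the log2 difference of Bglap was 1.12 ± 2.38, and for psilocybin against MDMA it was −6.20 ± 2.06. Vehicle against unstressed gave −5.91 ± 2.29, and this rested on 1 library: without unstressed library 2 the vehicle group had 1 count and the unstressed group 0, both under the floor of 3 counts, so no fold is given.

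The transcription factors of the lineage were less selective. Runx2 (ENSMUSG00000039153.16, chr17:44495987-44814797, minus strand), without which mice form no bone, had 38, 37 and 83 counts in the psilocybin libraries and 95, 152 and 190 counts in the MDMA libraries, against 0, 25 and 101 counts in the vehicle libraries. It had 55, 234 and 188 counts in the unstressed libraries. The highest MDMA level of 53.2 CPM was close to that of vehicle library 3, which had 51.7 CPM of Runx2 beside 1 count of Bglap, so the groups overlapped. The MDMA against vehicle log2 difference of Runx2 was 0.19 ± 1.22. It was the only member whose sign in this comparison changed between processing settings, its values running from −0.40 (without vehicle library 1) to 2.22.

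Sp7 (ENSMUSG00000060284.7, chr15:102356606-102367182, minus strand), osterix, had 14, 9 and 23 counts with psilocybin and 38, 27 and 110 counts with MDMA, against 11, 0 and 0 counts with vehicle. Unstressed libraries had 60, 62 and 33 counts. The MDMA and unstressed groups were at one level, 13.8 ± 6.59 and 14.4 ± 6.58 CPM (SD, n = 3 each), and unstressed library 1, without any Bglap count, held 20.3 CPM. In vehicle library 2 the limit of 3.71 CPM lay below all MDMA levels, the lowest being 9.44 CPM, but above the 3.46 CPM of psilocybin library 2. The log2 difference was 3.23 ± 1.22 for MDMA against vehicle. It was −3.35 ± 1.23 for vehicle against unstressed, and −3.27 ± 1.37 there without unstressed library 2.

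The members' promoters were searched for the RUNX site, since RUNX2 is known to bind this site in osteoblast genes. The site was written as AACCACA, or TGTGGTT on the other strand, and was looked for in the 250 bases before each start in RefSeq's GRCm38.p6 windows. The table held 11 windows of 8 members, all but Bglap2 and Sp7. The site occurred in 4 windows, those of Mmp13, Spp1, Runx2 and the second start of Dmp1, while 4.4% of all 32851 windows of that length hold it. These 4 are shown because they carry the letters, which are in capitals. A match is a description of sequence, and nothing was measured here about binding.
Mmp13, chr9:7272264-7272513, plus strand: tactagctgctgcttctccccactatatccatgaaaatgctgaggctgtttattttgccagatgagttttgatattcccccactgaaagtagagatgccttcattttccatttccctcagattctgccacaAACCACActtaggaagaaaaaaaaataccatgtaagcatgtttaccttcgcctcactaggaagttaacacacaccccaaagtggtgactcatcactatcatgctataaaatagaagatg
Spp1, chr5:104434861-104435110, plus strand: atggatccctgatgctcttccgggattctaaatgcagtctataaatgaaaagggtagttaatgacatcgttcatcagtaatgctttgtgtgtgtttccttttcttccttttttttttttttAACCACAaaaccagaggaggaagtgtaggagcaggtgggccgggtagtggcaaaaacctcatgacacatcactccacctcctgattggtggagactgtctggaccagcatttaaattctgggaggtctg
Runx2, chr17:44814628-44814877, minus strand: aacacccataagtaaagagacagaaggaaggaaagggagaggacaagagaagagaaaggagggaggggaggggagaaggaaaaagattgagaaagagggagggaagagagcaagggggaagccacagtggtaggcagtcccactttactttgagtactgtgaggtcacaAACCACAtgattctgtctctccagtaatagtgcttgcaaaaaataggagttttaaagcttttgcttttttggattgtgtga
Dmp1, chr5:104202367-104202616, plus strand: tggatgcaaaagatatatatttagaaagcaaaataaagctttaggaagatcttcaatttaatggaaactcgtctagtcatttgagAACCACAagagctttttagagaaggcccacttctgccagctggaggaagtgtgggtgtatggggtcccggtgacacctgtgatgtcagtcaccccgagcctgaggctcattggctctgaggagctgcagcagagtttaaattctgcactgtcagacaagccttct
The site begins 119 bases before the start in Mmp13, 129 bases before it in Spp1, 81 bases before it in Runx2 and 165 bases before it in Dmp1. The windows of Bglap, Ibsp, Alpl and Wif1 hold no exact match, which says only that these letters are not in those bases.

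Mmp13 gave the widest gap between MDMA and vehicle among the 8 members with vehicle counts. Mmp13 (ENSMUSG00000050578.10, chr9:7272514-7283331, plus strand) encodes collagenase 3, which osteoblasts and hypertrophic chondrocytes use to cut matrix collagen. It had 22, 30 and 59 counts in the psilocybin libraries and 271, 178 and 1625 counts in the MDMA libraries, against 0, 0 and 1 counts in the vehicle libraries. The unstressed libraries had 48, 165 and 2 counts. Every psilocybin library lay above every vehicle library and below every MDMA library. The levels averaged 10.8 ± 4.02 CPM with psilocybin, 152 ± 143 CPM with MDMA, 0.171 ± 0.295 CPM with vehicle and 19.3 ± 20.5 CPM in unstressed mice (SD, n = 3 each). The log2 difference was 5.49 ± 1.64 for psilocybin against vehicle, 9.20 ± 1.74 for MDMA against vehicle and −3.71 ± 1.22 for psilocybin against MDMA. Vehicle libraries 1 and 2 had no Mmp13 count. The limit in library 2 was 3.71 CPM, below the lowest psilocybin value of 6.51 CPM and the lowest MDMA value of 62.2 CPM.

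The secreted phosphoproteins of mineralised tissue lie together on chromosome 5, where Dspp, Dmp1, Ibsp, Mepe and Spp1 span 270339 bases in this order. Ibsp (ENSMUSG00000029306.8, chr5:104299171-104311469, plus strand), bone sialoprotein, nucleates mineral. It had 2, 9 and 36 counts with psilocybin and 155, 306 and 710 counts with MDMA, against 64, 0 and 36 counts with vehicle. Unstressed libraries had 69, 612 and 1 counts. Psilocybin and vehicle overlapped, and the log2 difference of MDMA against vehicle was 2.59 ± 1.54. All MDMA levels, the lowest being 43.5 CPM, lay above the limit of 3.71 CPM in vehicle library 2, which had no Ibsp count.

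Dmp1 (ENSMUSG00000029307.7, chr5:104202613-104214102, plus strand), a matrix protein of osteocytes, had the lowest mean CPM of the members with MDMA. It had 3, 2 and 30 counts with psilocybin and 13, 16 and 45 counts with MDMA, against no count in any vehicle library. Unstressed libraries had 0, 34 and 0 counts. Psilocybin library 3 departed from the osteocalcin pattern: it held 30 Dmp1 counts beside 2 Bglap counts, whereas MDMA library 1 held 13 Dmp1 counts beside 96 Bglap counts. Against a floor of 3 counts over the vehicle group, Dmp1 was at least 6.44-fold higher with psilocybin and at least 11.2-fold higher with MDMA. The psilocybin value rested on library 3, since libraries 1 and 2 held only 3 and 2 counts. The Dmp1 level of 3.64 CPM in MDMA library 1 is below the limit of 3.71 CPM in vehicle library 2, so a level of this size was not detectable there.

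Spp1 (ENSMUSG00000029304.14, chr5:104435118-104441050, plus strand) encodes osteopontin, which macrophages and other cells make as well as bone cells. It had 220, 162 and 632 counts with psilocybin and 1040, 1164 and 3754 counts with MDMA, against 611, 60 and 4 counts with vehicle. Unstressed libraries had 68, 596 and 90 counts. Vehicle library 1 reached 169 CPM of Spp1 with no count of Bglap, Mmp13, Dmp1 or Wif1, close to the 149 CPM of unstressed library 2, where all of these were found. The log2 difference was 0.12 ± 0.99 for psilocybin against vehicle and 2.41 ± 1.04 for MDMA against vehicle. The cluster genes outside the list were nearly silent, with at most 7 counts of Mepe, in unstressed library 2, and at most 1 of Dspp.

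Taken as ratios of mean CPM, the groups differed least in Alpl among the members. Alpl (ENSMUSG00000028766.10, chr4:137741733-137796384, minus strand), the alkaline phosphatase of bone, liver and kidney, is also made outside bone, and every library held it. It had 608, 475 and 1133 counts with psilocybin and 1043, 604 and 2531 counts with MDMA, against 222, 149 and 545 counts with vehicle. Unstressed libraries had 557, 1114 and 776 counts. The mean levels were 213 ± 55.7 CPM with psilocybin, 332 ± 145 CPM with MDMA, 175 ± 109 CPM with vehicle and 213 ± 56.8 CPM in unstressed mice, and the groups overlapped throughout. The MDMA against vehicle log2 difference was 0.58 ± 0.56.

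Wif1 (ENSMUSG00000020218.11, chr10:121033960-121100650, plus strand) encodes a secreted inhibitor that binds WNT ligands. It had 0, 0 and 3 counts with psilocybin and 21, 12 and 147 counts with MDMA, against none with vehicle. Unstressed libraries had 0, 14 and 3 counts. Over the vehicle floor Wif1 was at least 27.3-fold higher with MDMA, and MDMA library 3 held most of those counts. The lowest MDMA level, 4.20 CPM, lay just above the limit in vehicle library 2.

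**Figure D2:**
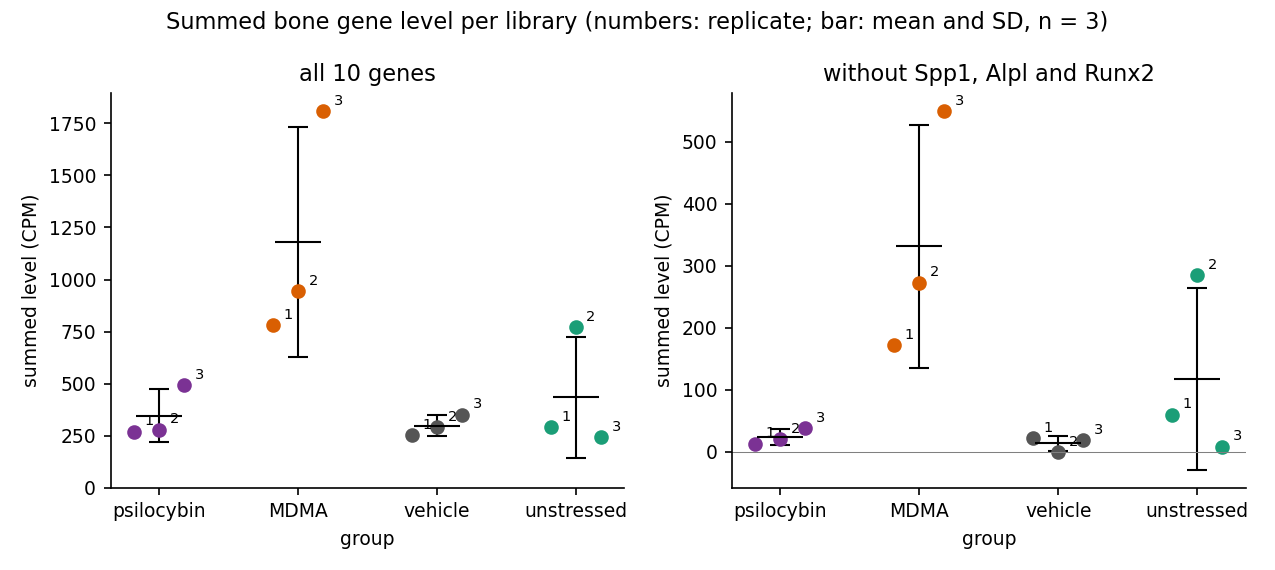
Summed level of the 10 genes (left) and of the 7 genes other than Spp1, Alpl and Runx2 (right) in each library, in CPM, with the group on the horizontal axis. Points are libraries with their replicate number, and bars are the mean and SD of 3 libraries. On the right, MDMA libraries 1 to 3 sit at 172, 273 and 549 CPM and unstressed library 2 at 285 CPM, above the other 8 libraries.

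Spp1 and Alpl made up most of the summed level. They gave 87.6% to 90.9% of the sum in the psilocybin libraries, 65.5% to 74.6% in the MDMA libraries, 79.8% to 91.3% in the vehicle libraries and 55.4% to 79.2% in the unstressed libraries. Without Spp1, Alpl and Runx2 the remaining 7 genes summed to 13.3, 20.4 and 38.5 CPM in the psilocybin libraries and to 172, 273 and 549 CPM in the MDMA libraries, against 21.8, 0 and 19.4 CPM in the vehicle libraries. The unstressed libraries had 60.4, 285 and 8.66 CPM. The MDMA libraries lay above all psilocybin and vehicle libraries, and the unstressed group held 1 high and 2 low libraries.

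Levels between genes were compared per kilobase of exon. In the MDMA group Spp1 came first at 356 ± 170.0 CPM per kilobase, followed by Alpl at 82.4 ± 35.9, Bglap at 63.0 ± 34.1, Mmp13 at 56.7 ± 53.5, Ibsp at 46.5 ± 23.4 and Bglap2 at 25.4 ± 17.0. Wif1, Runx2, Sp7 and Dmp1 followed at 5.32 ± 5.62, 4.68 ± 1.61, 4.07 ± 1.94 and 2.17 ± 0.934 CPM per kilobase. From Alpl to Bglap2, and again from Wif1 to Dmp1, neighbours differed by less than the larger of their SDs, so the order within those runs is not settled. In the vehicle group Spp1 and Alpl again came first, and Bglap stood in the seventh place at 0.276 ± 0.478 CPM per kilobase. The exons of Bglap cover 618 bases in the Ensembl annotation and 479 bases in the RefSeq one used for the unstressed libraries. Those of Spp1 not shared with other genes cover 1339 and 1658 bases.

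The 4 libraries with osteocalcin did not hold the other members in fixed proportion to it. For each Bglap count there were 2.82, 0.983 and 11.9 counts of Mmp13 in MDMA libraries 1 to 3 and 0.897 in unstressed library 2. Ibsp had 1.61, 1.69 and 5.18 counts per Bglap count in the MDMA libraries and 3.33 in unstressed library 2. Spp1 had 10.8, 6.43 and 27.4 counts per Bglap count with MDMA and 3.24 in unstressed library 2. MDMA library 3 was the richest of the 4 in Mmp13, Ibsp and Spp1 relative to osteocalcin.

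**Figure D3:**
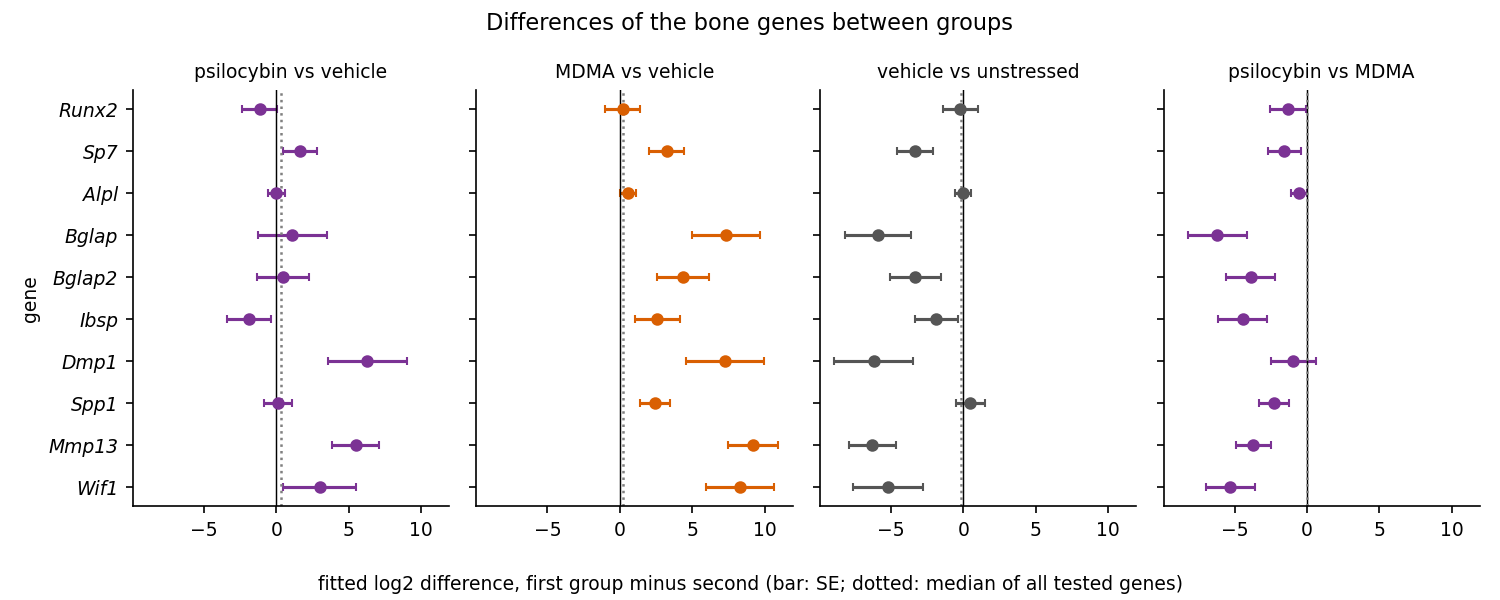
Fitted log2 differences of the 10 genes (rows) in 4 comparisons (panels), first group minus second, from edgeR over all 12 libraries. Points are estimates, bars are SE, the solid line is 0 and the dotted line is the median of all tested genes. All 10 genes lie to the right of 0 for MDMA against vehicle and to the left of 0 for psilocybin against MDMA; the points of Dmp1 and Wif1 against vehicle rest on vehicle counts of 0.

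Set side by side, the 10 genes had a median log2 difference of 0.795 for psilocybin against vehicle, where the median of all 13942 tested genes was 0.308. For MDMA against vehicle the members' median was 3.79 beside 0.24 for all genes, for vehicle against unstressed −3.34 beside −0.182, and for psilocybin against MDMA −3.0 beside 0.0181. With Dmp1 and Wif1 placed at their bounds the first 3 medians of the members were 0.29, 3.36 and −2.16. Without unstressed library 2, Bglap, Dmp1 and Wif1 were at or under 3 counts in both the vehicle and the unstressed group, and the other 7 members had a median of 0.26 for vehicle against unstressed, beside −0.0301 for all genes. The comparisons share libraries, so their directions are not independent. With DESeq2 size factors the medians of all genes were 0.119, 0.0995, 0.0022 and −0.0274 in that order.

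In MDMA against vehicle, 8 of the 10 members, all but Alpl and Runx2, had every MDMA library above every vehicle library, as did 16.8% of all tested genes. In psilocybin against vehicle this held for 3 members, Sp7, Mmp13 and Dmp1 (20.8% of all genes), and none was lower without overlap (2.62%). In vehicle against unstressed only Sp7 was lower without overlap (17.8%) and none was higher (2.77%). In psilocybin against MDMA 8 members, all but Alpl and Dmp1, were lower without overlap (8.33%) and none was higher (7.75%). Since the members were chosen from these values, nothing is read from those counts.

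Tests were kept to genes outside the members, and their counts are read against the share of all tested genes. For psilocybin against vehicle edgeR called 0.0143% of all genes at an adjusted p of 0.05 (0 genes with the replicate number as a block), DESeq2 7.83% and limma voom 3.13%, and 16% had an unadjusted p under 0.05. For MDMA against vehicle edgeR called 0.674%, DESeq2 9.86% and limma voom 6.36%, and 16.7% had an unadjusted p under 0.05. For vehicle against unstressed edgeR called 3.41% (3.19% lower and 0.222% higher), DESeq2 12.9% and limma voom 10.1%, and 18.5% had an unadjusted p under 0.05. For psilocybin against MDMA all of these tools called 0 genes, and 0.588% had an unadjusted p under 0.05.

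A wider list of 30 osteoblast and matrix genes outside the members was examined next, of which 23 were tested. For MDMA against vehicle their median log2 difference was 1.43 and 19 of 23 were positive, beside 0.24 and 7959 of 13942 for all tested genes. None was called by edgeR, 4 had an unadjusted p under 0.05, DESeq2 called 3 higher and limma voom 5 higher. Among all genes, DESeq2 called 9.86% and limma voom 6.36%, in either direction. A share of 4 in 23 is close to the 16.7% of all genes with an unadjusted p under 0.05. For psilocybin against MDMA the median was −0.797 and 0 of 23 were positive, beside a median of 0.0181 for all genes. There were 2 unadjusted p-values under 0.05, beside 0.588% of all genes, and no call by edgeR, DESeq2 or limma voom. For psilocybin against vehicle the median was 0.222, beside 0.308 for all genes. No gene of the list was called by edgeR and 4 had an unadjusted p under 0.05, while DESeq2 called 2 higher and 1 lower and limma voom 1 higher. Among all genes the shares were 16% with an unadjusted p under 0.05, 7.83% called by DESeq2 and 3.13% by limma voom.

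Col1a1 and Col1a2 encode the chains of type I collagen, which fibroblasts make as well as osteoblasts. Col1a1 stood at 636, 534 and 930.1 CPM in the psilocybin libraries and 2095, 2126 and 6982 CPM in the MDMA libraries, against 35.3, 764 and 1509 CPM in the vehicle libraries. It stood at 914.5, 2466 and 1179 CPM in the unstressed libraries, highest in library 2. The log2 difference of MDMA against vehicle was 1.87 ± 0.90, higher in 3 of 3 libraries (edgeR adjusted p = 0.3132). Meningeal fibroblast markers summed to 2433, 1130 and 2197 CPM with psilocybin and 2617, 3345 and 2819 CPM with MDMA, against 1078, 1518 and 1543 CPM with vehicle, and their part in the collagen values was not tested. Of those markers Igf2, a growth factor, fell with vehicle against unstressed (log2 difference −4.63 ± 0.79, edgeR adjusted p = 0.01986), with 16.8, 9.90 and 1.02 CPM with vehicle and 224, 279 and 238 CPM in unstressed mice. That call was lost without any 1 of the unstressed libraries (adjusted p = 0.07706, 0.07541 and 0.08875). Igf2 was also low in the other stressed groups, at 17.67 ± 1.69 CPM with psilocybin and 21.15 ± 2.91 CPM with MDMA (SD, n = 3 each). The unstressed libraries were counted over another annotation, and its part in the Igf2 difference was not tested.

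Pth1r, the parathyroid hormone receptor of osteoblasts, was the only gene of the wider list called by edgeR. It fell with vehicle against unstressed, where DESeq2 and limma voom each called 3 genes of the list lower. These tools called 12.9% and 10.1% of all genes there, in either direction. Pth1r had no count in any vehicle library and 22.4, 20.0 and 32.6 CPM in the unstressed libraries. It was at least 47.2-fold lower with vehicle (edgeR adjusted p = 0.02867, lower in 3 of 3 libraries). The psilocybin libraries had 2.37, 3.84 and 3.68 CPM and the MDMA libraries 7.01, 14.3 and 4.87 CPM, while the limit in vehicle library 2 was 3.71 CPM. Unlike Bglap, Pth1r was not higher in unstressed library 2 than in libraries 1 and 3. The call was lost without any 1 of the unstressed libraries, at an adjusted p of 0.07706, 0.07541 and 0.08875 without libraries 1, 2 and 3. Of all tested genes, 5.84% had no count in any vehicle library, and the adjusted p of Pth1r ran from 8.402e-06 to 0.2687 over 14 other settings. Another annotation was used for the unstressed libraries. Its part in the Pth1r call, and in the other calls for vehicle against unstressed given below, was not tested.

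Genes around the members' roles gave few calls by edgeR. Among 5 tested genes of mineral handling, Enpp1, the enzyme that makes the pyrophosphate Alpl removes, rose with MDMA against vehicle (edgeR adjusted p = 0.04653) and fell with vehicle against unstressed (0.01609). It had 30.2, 16.1 and 36.0 CPM with psilocybin and 42.3, 7.69 and 57.8 CPM with MDMA, against no count with vehicle. The unstressed libraries had 86.1, 52.6 and 38.4 CPM, all above the limit of 3.71 CPM in vehicle library 2, as were the psilocybin and MDMA levels. It was at least 71.3-fold higher with MDMA than with vehicle and at least 103-fold lower with vehicle than in unstressed mice. The first call was lost without vehicle library 1 (adjusted p = 0.06568) and without any 1 of the MDMA libraries (0.1096, 0.08803 and 0.1105), and the second without any 1 of the unstressed libraries (0.0729, 0.05853 and 0.07097). Over all other settings the first adjusted p ran from 8.497e-06 to 0.5325 and the second from 2.946e-07 to 0.2687.

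Among 16 tested WNT pathway genes, Frzb, a secreted WNT inhibitor like Wif1, passed in the same comparisons. It had 44, 29 and 52 counts with psilocybin and 127, 6 and 122 counts with MDMA, against no count with vehicle. Unstressed libraries had 44, 49 and 57 counts. The 2.10 CPM of MDMA library 2 were below the limit in vehicle library 2. It rose with MDMA against vehicle (at least 38.7-fold, edgeR adjusted p = 0.04969, 0.0001392 to 0.1863 over other settings) and fell with vehicle against unstressed (at least 24.1-fold, adjusted p = 0.03675, 0.0003524 to 0.2687). Both calls were lost without vehicle library 1 (0.07916 and 0.06414). The first was also lost without any 1 of the MDMA libraries (0.1411, 0.08803 and 0.1216), and the second without any 1 of the unstressed libraries (0.07854, 0.08169 and 0.08875). The median log2 difference of the 16 genes was 1.35 for MDMA against vehicle and −1.56 for vehicle against unstressed. The medians of all tested genes were 0.24 and −0.182. DESeq2 called 4 and limma voom 6 of the 16 higher in the first comparison, beside 9.86% and 6.36% of all genes in either direction. Each called 5 lower in the second, where edgeR called 1, beside 12.9% and 10.1% of all genes in either direction.

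Of 17 tested BMP pathway genes, the inhibitor Fst fell with vehicle against unstressed (edgeR adjusted p = 0.04253, at least 17.9-fold), with no count in any vehicle library. That call was lost without vehicle library 1 (0.08446) and without any 1 of the unstressed libraries (0.09449, 0.08193 and 0.09023). None was called for MDMA against vehicle by edgeR, where 5 had an unadjusted p under 0.05, DESeq2 called 3 and limma voom 2, beside 16.7%, 9.86% and 6.36% of all genes. Of 5 tested RUNX proteins and partners, none was called by edgeR for MDMA against vehicle, none had an unadjusted p under 0.05, DESeq2 and limma voom called none, and the median log2 difference was −0.164.

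**Figure D4:**
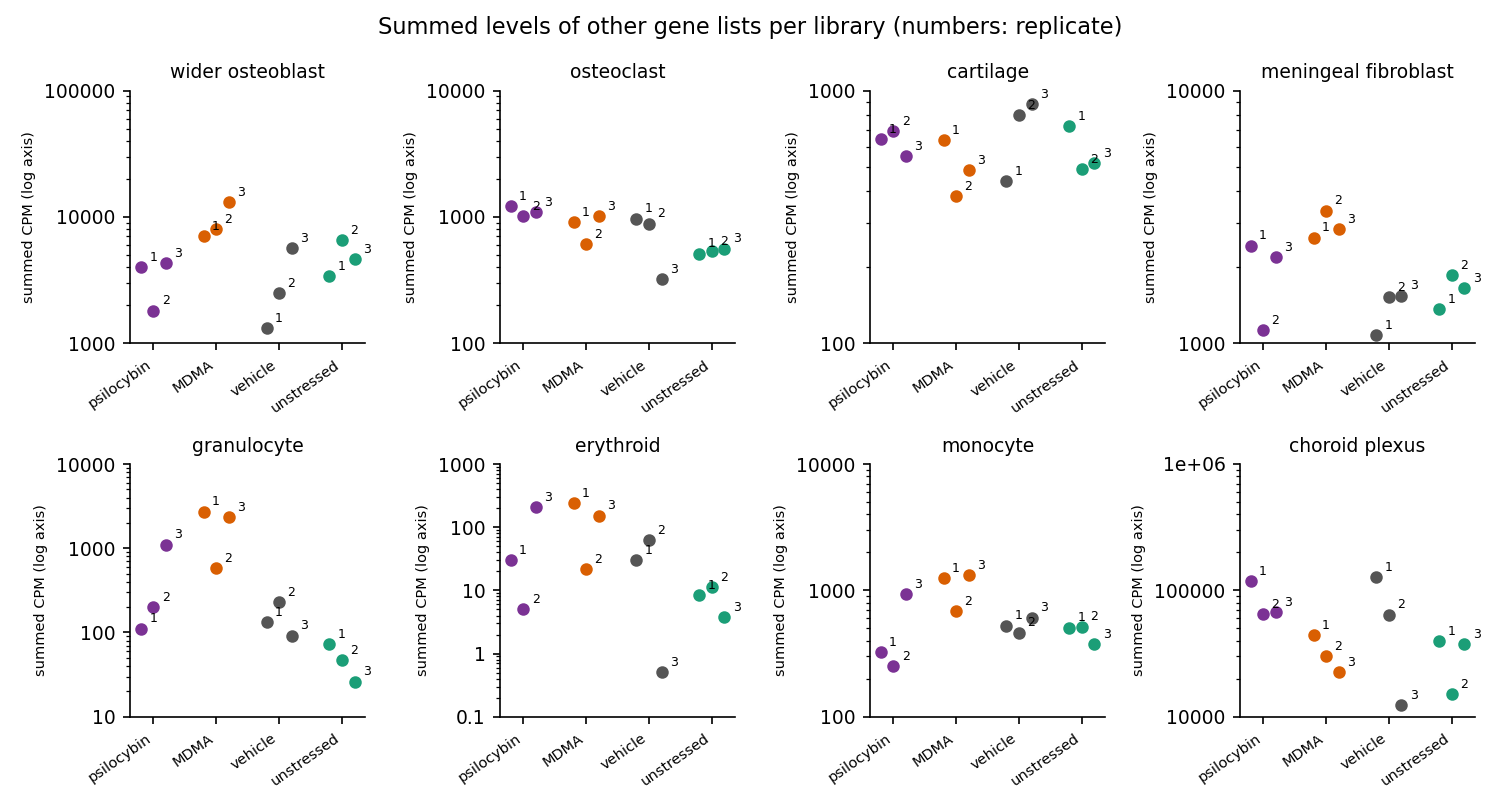
Summed CPM (logarithmic axes) of 8 other gene lists in each library, with groups on the horizontal axis and replicate numbers beside the points. Wider osteoblast genes are highest in the 3 MDMA libraries, at 7068, 8032 and 13126 CPM, and granulocyte genes are high in MDMA libraries 1 and 3 and low in unstressed library 2, at 46.9 CPM.

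Lists for other cells of bone were read beside the members. Osteoclast genes, which mark the cells that resorb bone, summed to 1211, 1015 and 1084 CPM with psilocybin and 908, 611 and 1015 CPM with MDMA, against 967, 885 and 323 CPM with vehicle, so MDMA and vehicle overlapped. Car2, which other tissues also make, and the chloride transporter gene Clcn7 had the highest means of the list over all 12 libraries. In the MDMA libraries they had 526, 422 and 570 CPM and 70.1, 16.8 and 99.1 CPM. Ctsk, the collagen-cutting protease of osteoclasts, had 59.5, 18.1 and 61.3 CPM with psilocybin and 90.0, 54.2 and 74.2 CPM with MDMA, against 0, 38.4 and 56.3 CPM with vehicle, and Ocstamp, Dcstamp and Siglec15 had at most 2 counts in any library. Of 10 tested osteoclast genes, none was called for MDMA against vehicle by edgeR. Among them were 1 unadjusted p under 0.05, 1 DESeq2 call and no limma voom call, beside 16.7%, 9.86% and 6.36% of all genes. The osteocyte list summed to 106, 149 and 111 CPM with psilocybin and 119, 93.4 and 104 CPM with MDMA, against 31.2, 89.1 and 166 CPM with vehicle. Nearly all of this was Pdpn, which other cells also make, while Phex had 23, 0 and 17 counts with MDMA and 0, 1 and 0 with vehicle, and Sost and Fgf23 had at most 2 counts in any library. The cartilage list summed to 501 ± 128 CPM with MDMA and 707 ± 237 CPM with vehicle (SD, n = 3 each). Col9a3 was its most abundant gene with vehicle, at 284 ± 108 CPM, beside 107 ± 39.7 CPM with MDMA. Gene by gene the direction differed from that of the sum. Of 10 tested cartilage genes, 7 were positive for MDMA against vehicle, with a median log2 difference of 0.747 beside 0.24 for all genes. The cartilage gene Cnmd fell with vehicle against unstressed (edgeR adjusted p = 0.04913, at least 8.69-fold). That call was lost without vehicle library 1 or 3 (0.1035 and 0.05706) and without any 1 of the unstressed libraries (0.1023, 0.08596 and 0.1002). Cnmd had no vehicle count and 8.82, 2.74 and 3.77 CPM in the unstressed libraries. The level of unstressed library 2 was below the limit of 3.71 CPM in vehicle library 2, and that of library 3 just above it.

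Granulocytes and their precursors are abundant in bone marrow. The 14 listed granulocyte genes summed to 111, 201 and 1103 CPM with psilocybin and 2714, 577 and 2359 CPM with MDMA, against 133, 230.0 and 92.1 CPM with vehicle. The unstressed libraries had 73.2, 46.9 and 26.2 CPM. Unstressed library 2 thus held 285 CPM of the 7 bone genes with 46.9 CPM of granulocyte genes. Psilocybin library 3 held 1103 CPM of granulocyte genes with 38.5 CPM of the 7 bone genes, of which osteocalcin was 1.47 CPM. That 38.5 CPM was the highest 7-gene sum of the psilocybin and vehicle libraries. Ngp, a neutrophil granule protein and the most abundant of the list, had 31.1, 69.6 and 387 CPM with psilocybin and 1022, 298 and 947 CPM with MDMA, against 90.0, 118 and 4.61 CPM with vehicle. None of the 13 tested granulocyte genes was called by edgeR for MDMA against vehicle, 9 had an unadjusted p under 0.05, DESeq2 called 8 higher and limma voom 3 higher, beside 16.7%, 9.86% and 6.36% of all genes. Erythroid genes summed to 29.9, 5.0 and 206 CPM with psilocybin and 241, 21.7 and 153 CPM with MDMA, against 30.4, 61.9 and 0.512 CPM with vehicle. Of the megakaryocyte list, Gp1bb, a platelet receptor subunit, fell with vehicle against unstressed (edgeR adjusted p = 0.04913, at least 14-fold), with no count with vehicle and 33, 16 and 38 counts in unstressed mice. That call was lost without vehicle library 1 or 3 (0.1004 and 0.06024) and without any 1 of the unstressed libraries (0.09424, 0.08615 and 0.1022). Gp1bb was also nearly absent from the other stressed groups, with 1 count over the psilocybin libraries and 1 over the MDMA libraries. The unstressed libraries were counted over another annotation, and its part in this difference was not tested. The part of marrow cells in the members' levels was not tested.

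The genes whose level followed the members most closely over the 12 libraries were ranked by Pearson's r between their log2(CPM + 1) and the mean standardised log2(CPM + 1) of the members, among 12193 tested genes with a mean of at least 5 CPM. The 12 points share 4 groups and differ in depth and in the share of genes at 0, so the values are a description. Col11a2, a chain of fibrillar collagen of cartilage and bone, came first at r = 0.914, with 2, 2 and 3 counts with psilocybin and 6, 51 and 113 counts with MDMA, no count with vehicle and 68 counts in unstressed library 2. Ccr1, a chemokine receptor of myeloid cells, followed at 0.901, Sla at 0.858, Wdhd1 at 0.843 and C130021I20Rik at 0.827. Cnn2, Top2a, Anln, Nbl1 and Clec4e completed the first 10, at 0.825, 0.822, 0.815, 0.812 and 0.812. Of 20 wider osteoblast genes that could be ranked, 2 (Slc36a2 and Col1a1) were among the first 100, and the list's median r was 0.54 beside 0.244 for all candidates. Granulocyte genes had a median r of 0.581 and choroid plexus genes of −0.33.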

How the data were processed

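The deposited files hold raw counts, whole numbers of reads for each gene. The submitters' processing notes list fastp 0.23.2, STAR 2.7.5c, featureCounts 2.0.1, edgeR 3.42.4 and mm10. Unstressed libraries were counted by featureCounts over RefSeq exons with no strand option, per the file headers, so overlapping and antisense genes cannot be told apart. The stressed libraries carry Ensembl identifiers, and their counting command is not given in the sources used here. Both annotations were joined with GENCODE vM21, keeping 94.8% to 99.09% of each library's counts. Another 3 columns were not analysed here.

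Counts were scaled with TMM, filtered with filterByExpr and tested over all 12 libraries with edgeR 4.0.16 (quasi-likelihood, R 4.3.3), with Benjamini-Hochberg adjustment over all tested genes at 0.05. DESeq2 1.42.0 and limma 3.58.1 voom were alternatives. Pooled ratios and floors use TMM-scaled totals. Correlations between the deviations of same-numbered libraries were 0.112, 0.213 and 0.115 for psilocybin and vehicle. They were 0.225, 0.0242 and 0.214 for psilocybin and MDMA, and 0.0201, 0.131 and 0.0953 for vehicle and unstressed. MDMA and vehicle gave 0.0771, −0.109 and −0.0676. These weak values do not establish a pairing, and the labels give none. The replicate number was used as a block only in an alternative setting.

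The members and all lists were chosen with earlier results of these data known. From most other lists described, genes past the threshold in a comparison were named (at most 4), or the most abundant where none passed. No gene was named from the erythroid, monocyte, choroid plexus and RUNX partner lists, where none passed with edgeR. Ctsk, Ocstamp, Dcstamp, Siglec15, Phex, Sost and Fgf23 were named after their values were seen. Suture mesenchyme, endothelium, B precursor and border macrophage lists are not described.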

Additional observations from a re-analysis of the deposited data

How the results depend on the processing

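The counts of calls moved most with the vehicle libraries. For psilocybin against vehicle, MDMA against vehicle and vehicle against unstressed, edgeR called 2, 94 and 476 genes, DESeq2 1061, 1336 and 1748, and limma voom 436, 887 and 1404. DESeq2 size factors gave 0, 3 and 298, only the 6 libraries compared gave 0, 0 and 2, and no filter on low counts gave 7, 101 and 291. Vehicle library 2 as the only vehicle library gave 0, 0 and 399, the 9 stressed libraries alone gave 0 for both comparisons with vehicle, and genes with nearly the same exons gave 25 for vehicle against unstressed. Leaving out each library in turn gave 0 to 3533, 0 to 3612 and 8 to 3665, each highest without vehicle library 2. Without vehicle library 3 the counts were 140, 280 and 982, without vehicle library 1 they were 0, 3 and 268, without any 1 of the psilocybin or MDMA libraries 0 for that drug against vehicle, and without unstressed libraries 1, 2 and 3 they were 9, 10 and 8 for vehicle against unstressed. With the replicate number as a block they were 0, 0 and 10, though no pairing by number was established.

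Of the wider osteoblast list, where edgeR called 0, 0 and 1 genes, DESeq2 called 3, 3 and 3, limma voom 1, 5 and 3, and leave-one-out fits 0 to 7, 0 to 6 and 0 to 6. The stricter filter called 1 for MDMA against vehicle, and vehicle library 2 alone gave 2 for vehicle against unstressed. The call for vehicle against unstressed was lost (0) with the replicate block, with only the 6 libraries and with only the genes of nearly the same exons. Psilocybin against MDMA had no call of any gene in the settings run. The members' summed vehicle level was 349 CPM with TMM-scaled sizes and 216 CPM without Spp1, against 298 CPM. The members' log2 differences were positive in 154 of 158 values for MDMA against vehicle, all exceptions being Runx2, and negative in 148 of 148 for psilocybin against MDMA. The cause of these shifts was not tested. With 807725 counts, vehicle library 2 limits what can be seen of low members.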
